A study of Mus musculus with 18 samples.

Results

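The genes described here are 34 components, receptors and regulators of the complement system, measured by RNA-seq in the liver of mice. They were found by gene name in a deposited table of 54532 annotated genes, and all 34 were in it. For description, they were divided by the cell that is known to make them in liver into 21 hepatocyte-made genes, 7 macrophage-made genes (C1qa, C1qb, C1qc, Cfp, Fcna, C3ar1 and C5ar1) and 6 genes of another or mixed source (C7, Colec10, Colec11, Susd4, Cd55 and Cd59a). The division is background knowledge and was not measured here, since whole liver was sequenced. The samples were livers of 18 male C57BL/6 mice (C57BL/6J in the methods of the study), 6 per group, taken after an overnight fast. Normal control mice (NC) received a standard chow diet. By the study's methods the mice were 6 weeks old when acclimatization began, before the diets started. HFD mice received a high-fat diet for 14 weeks and then saline with continued high-fat diet. SZ-A mice received the same diet and then SZ-A, the alkaloids of Ramulus Mori (mulberry twig), in place of saline, for 8 weeks by the deposited design and for a shorter time by the study's methods. The dose and the route for the sequenced mice are not named in the sources used here. NC and SZ-A mice therefore differ in both diet and treatment. For the mouse NC6 the deposited diet entry reads high-fat diet, against its title. This mouse was kept in NC, and the counts without it are given with the results.

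Complement is a cascade of plasma proteins that tags and lyses targets. The classical pathway starts when C1q binds antibody or other surfaces and its partner proteases C1r and C1s cleave C4 and C2, the lectin pathway starts when mannose-binding lectins, collectins or ficolins recognise sugars and activate the MASP proteases, and the alternative pathway amplifies through factor B and properdin. All routes meet at C3, after which C5 to C9 assemble the membrane attack complex. Hepatocytes secrete most of the circulating components, while C1q, properdin and the receptors for the cleavage fragments C3a and C5a are typical of macrophages, which in liver include the resident Kupffer cells.

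In the comparison of HFD with NC mice, 15 of the 33 members tested were higher and none was lower (limma, adjusted p under 0.05 and fold change over 1.2, "called" below). Over all 10216 genes tested, 10.7% were called higher and 9.49% lower in the same comparison. At an unadjusted p under 0.05, 2 members (C6 and Susd4) were lower, beside 1866 of all 10216 genes, and voom called 1 of them, Susd4, lower, while sample weights called 3 lower (C6, Susd4 and C8b). By the division from background knowledge, the called members were 8 of 21 hepatocyte-made genes, 5 of 7 macrophage-made genes and 2 of 5 tested genes of other source. The median log2 fold change was 0.25 for the hepatocyte-made and 0.58 for the macrophage-made genes, against -0.03 for all genes tested. Whether the 2 sources differed was not tested. In SZ-A against HFD mice, 0 of the 33 members were called, where 0.0783% of all genes were called higher and 0.0685% lower. At an unadjusted p under 0.05 there were 8 members, of which 6 were higher (C1ra, C8b, Masp2, Fcna, Vtn and Susd4) and 2 lower (C3ar1 and C5ar1). That is 24.2% of the members tested, beside 14.8% of all genes tested at the same threshold (1515 of 10216, of which 893 were higher and 622 lower). In SZ-A against NC mice, 9 of 33 members were higher and 0 lower, against 5.31% of all genes higher and 4.3% lower. At an unadjusted p under 0.05, 0 members were lower there, beside 1214 of all genes, and voom and sample weights also called 0 lower.

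**Figure D1:**
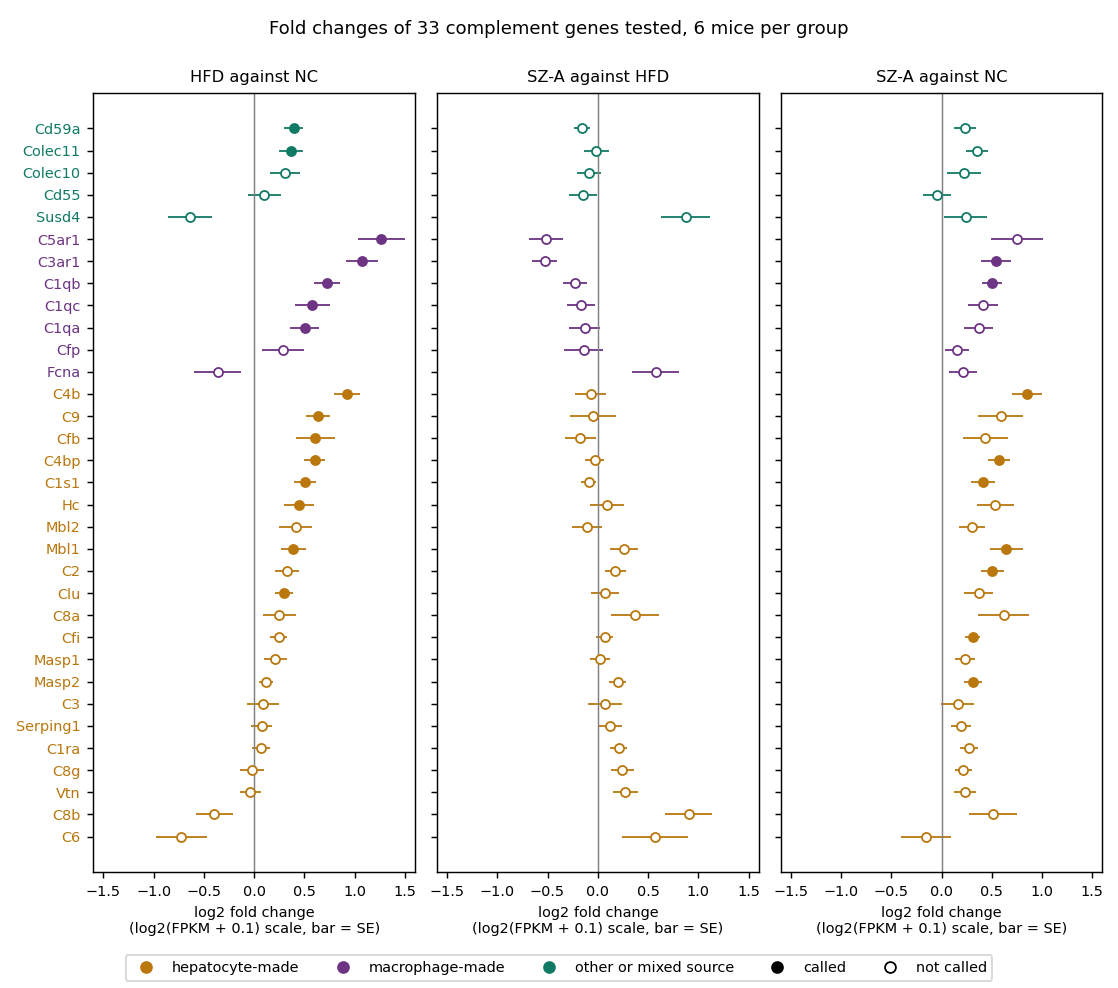
Log2 fold change of the 33 members tested (x axis, log2(FPKM + 0.1) scale) in each of the 3 comparisons, with 1 gene per line and the standard error as a bar. Colours mark the source, and filled points are called. In HFD against NC all 15 filled points lie to the right of 0, from Clu at 0.30 to C5ar1 at 1.27. In SZ-A against HFD no point is filled.

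Genes were tested where the mean FPKM (fragments per kilobase, normalized by the size of the library) over the 18 mice was at least 1. C7 did not reach this level and was not tested. Fold changes refer to log2(FPKM + 0.1), so that changes of low genes are understated, among them C3ar1, C5ar1 and Cfb. The mice of a group are separate animals, so the p-values weigh the difference between groups against the spread between animals, moderated over genes by limma. Fragments on genes ranged from 17163191 to 20493907 per mouse, and each of the 33 tested members had between 17 (C5ar1, the lowest mouse) and 202890 fragments (C3, the highest) in a mouse. In whole liver, a change in the number of cells of a type cannot be told apart from a change in RNA per cell. Markers of several cell types also moved between groups. Their counts in HFD against NC stand beside 10.7% of all genes called higher and 9.49% called lower. Of the 9 macrophage and Kupffer cell markers tested, 5 were called higher in HFD than NC mice (Adgre1, from a mean of 6.19 to 10.7 FPKM, Cd5l, Cd68, Lyz2 and Mpeg1), and the sum of the 12 listed lay between 124 and 266 FPKM in NC, between 269 and 421 in HFD and between 222 and 326 in SZ-A mice. None of these 12 markers was at 0 in all mice. Markers of Kupffer cells did not all behave alike in HFD against NC. Clec4f (adjusted p = 0.38) and Timd4 (adjusted p = 0.991), both used for resident Kupffer cells, were not called. Cd5l, another marker used for Kupffer cells, was called, with means of 49.5 FPKM in NC and 84.8 in HFD mice. Marco had means of 5.81 and 15.8 FPKM and was not called. Of 8 hepatocyte markers, 3 (Apoa1, Cps1 and Tat) were called lower in HFD than NC, and Alb, the first of the list, had mean levels of 29450 FPKM in the NC, 21470 in the HFD and 24030 in the SZ-A group. Of 3 neutrophil markers tested, S100a8 and S100a9 were called higher in HFD than NC, with means for S100a8 of 0.812 FPKM in NC and 4.1 in HFD mice. Of 8 stellate cell and fibroblast markers 6 were called higher in HFD than NC, of 6 endothelial markers 1, and of the 1 cholangiocyte and the 3 red cell markers tested 0. The T cell, B cell and adipocyte markers were all under the level needed for a test. The part of these shifts in the results on complement was not tested.

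The levels of the 34 genes spanned more than 3 orders of magnitude. C3, the protein on which all pathways converge, had the highest mean level, with 1326 ± 230 FPKM in NC mice (SD, n = 6), followed by Vtn (vitronectin, which keeps the terminal complex off host membranes) with 921 ± 63.9 and Clu (clusterin, with a like role) with 462 ± 44.5. The macrophage-made genes were much lower per length of gene. C1qa, at 46.1 ± 8.02 FPKM in NC, was the highest of them, and the receptors C3ar1 and C5ar1 were the lowest of all 34, with 0.704 ± 0.135 and 0.654 ± 0.301. The 21 hepatocyte-made genes together summed to between 4124 and 5025 FPKM in NC, between 4396 and 6417 in HFD and between 4209 and 6711 in SZ-A mice, and these ranges overlapped. The 7 macrophage-made genes summed to 136 to 201, 180 to 288 and 185 to 247 FPKM in the same order.

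**Figure D2:**
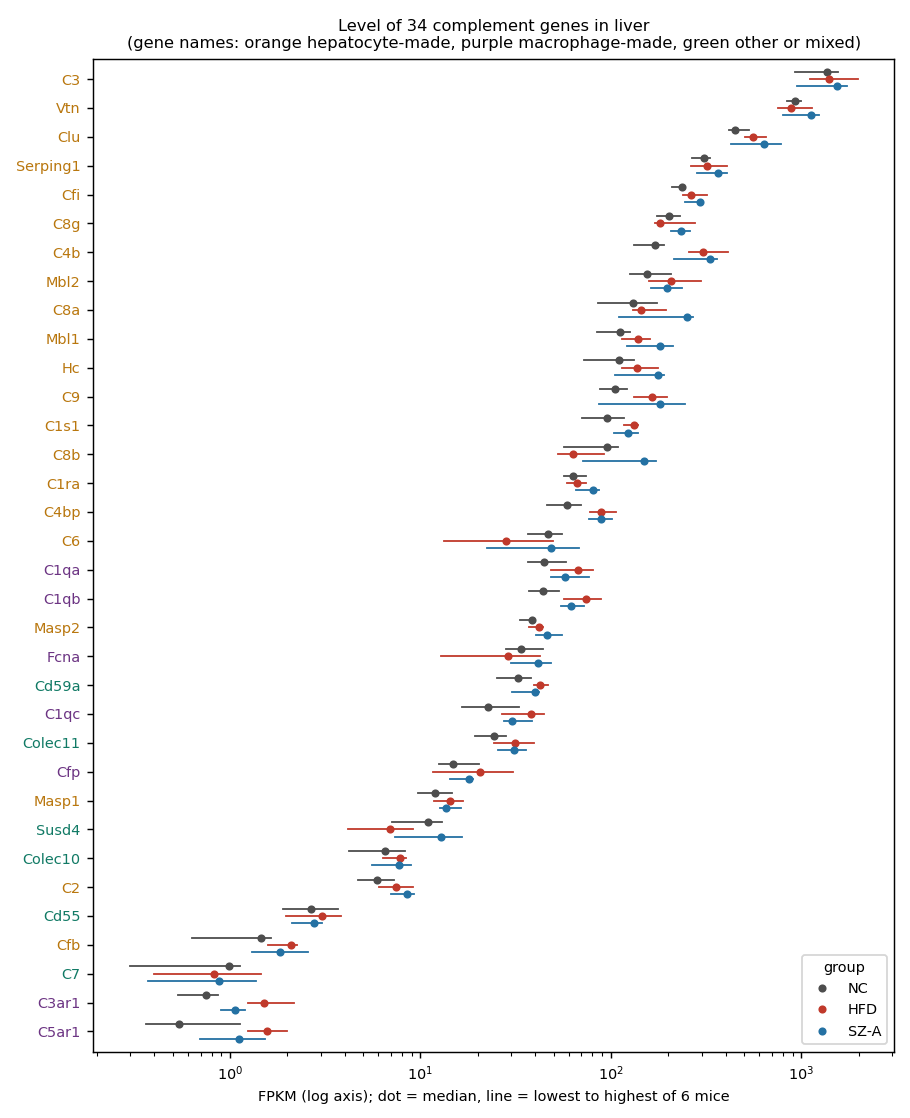
FPKM of the 34 genes on a log axis, ordered from top to bottom by the mean in NC mice. Dots are medians and lines run from the lowest to the highest of 6 mice in NC (grey), HFD (red) and SZ-A (blue). The hepatocyte-made genes, in orange, fill the top 17 places, from C3 with a median of 1366 FPKM in NC to C6 with 46.8, and the receptors C3ar1 and C5ar1 lie at the bottom.

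Several members lie side by side in the genome (GRCm38, the files' coordinates). C1qb, C1qc and C1qa follow each other on chromosome 4 with gaps of 3.62 and 2.85 kb, and C8b and C8a lie 11.1 kb apart on the same chromosome. C1ra and C1s1 lie 6.9 kb apart on chromosome 6. On chromosome 17, Cfb and C2 lie 86 bases apart, both on the minus strand. To show what lies before the genes with the clearest changes, the 250 bases upstream of the RefSeq start are printed for the 2 hepatocyte-made and the 2 macrophage-made members with the smallest adjusted p among those with a promoter entry (RefSeq, GRCm38.p6, given 5′ to 3′ on the strand of the gene). Capitals mark matches to the motifs searched, of which C3ar1 and C1qb had none. C4bp is on the minus strand at chr1:130661619-130661868, C9 on the plus strand at chr15:6445096-6445345, C3ar1 on the minus strand at chr6:122856158-122856407 and C1qb on the minus strand at chr4:136886201-136886450.
C4bp: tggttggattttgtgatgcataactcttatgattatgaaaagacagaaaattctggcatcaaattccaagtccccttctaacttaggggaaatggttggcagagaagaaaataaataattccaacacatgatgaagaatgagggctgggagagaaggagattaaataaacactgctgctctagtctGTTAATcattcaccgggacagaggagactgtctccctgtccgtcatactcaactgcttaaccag
C9: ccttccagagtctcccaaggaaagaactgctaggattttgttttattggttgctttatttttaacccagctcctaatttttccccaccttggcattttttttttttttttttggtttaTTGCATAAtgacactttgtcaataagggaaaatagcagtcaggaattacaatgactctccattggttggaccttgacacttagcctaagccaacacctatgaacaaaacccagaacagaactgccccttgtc
C3ar1: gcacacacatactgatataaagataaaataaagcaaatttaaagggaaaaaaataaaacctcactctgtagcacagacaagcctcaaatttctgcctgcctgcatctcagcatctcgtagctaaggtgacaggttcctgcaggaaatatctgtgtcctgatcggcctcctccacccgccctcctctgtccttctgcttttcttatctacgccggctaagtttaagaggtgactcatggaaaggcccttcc
C1qb: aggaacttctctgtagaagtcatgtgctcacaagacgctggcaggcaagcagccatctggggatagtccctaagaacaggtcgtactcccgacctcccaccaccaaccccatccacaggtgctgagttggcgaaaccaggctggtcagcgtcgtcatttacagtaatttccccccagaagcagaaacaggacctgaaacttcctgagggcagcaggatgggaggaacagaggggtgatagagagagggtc
The match in C4bp is GTTAAT, letters of the HNF1 motif, at -64 to -59 from the start, and that in C9 is TTGCATAA, which fits the C/EBP letters TTGCNNAA, at -132 to -125.

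Promoter entries were found for 25 of the 34 members, 14 hepatocyte-made, 6 macrophage-made and 5 of other source. C1qa, Colec10, Clu, Cfi, Cfb, Serping1, Masp1, C2 and C4b had none and were left out of the motif counts. Each motif was searched on both strands of the 250 bases. GTTAAT was in 6 of 14 hepatocyte-made promoters (C1ra, Hc, C8a, C8b, C4bp and Vtn) and 1 of 6 macrophage-made ones (Cfp), against 7.49% of 27025 genes. TTGCNNAA was in 3 of 14 (C1s1, C3 and C9) and 0 of 6, against 10.8%. TGACCT, a nuclear receptor site, was in 4 of 14 (C3, C6, C8b and Mbl2) and 1 of 6 (C1qc), against 15.8%, and the STAT letters TTCNNNGAA were in 2 of 14 (C8a and Masp2) and 0 of 6, against 8.13%. Of the motifs of PU.1, a factor of macrophages, GAGGAAGT was in 0 of 14 and 1 of 6 (C1qc), against 2.79%, and AGAGGAA, which shares GAGGAA with it, was in 0 of 14 and 1 of 6 (Fcna), against 9.85%. These counts describe letters in a short window.

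The chains and proteases of the classical pathway were called higher in HFD than NC mice for 4 of 5 members (80%). Over all genes tested, 20.2% were called higher or lower in this comparison. Whether any pathway differed from that share was not tested, here or below. C1qb, the B chain of C1q, ranged over 37.1 to 53.4 FPKM in NC (median 43.8), over 57.0 to 88.7 in HFD (median 74.2) and over 55.0 to 72.2 in SZ-A mice (median 61.6). All 6 HFD mice and all 6 SZ-A mice lay above all NC mice. The log2 fold change was 0.72 ± 0.13 (SE) in HFD against NC (adjusted p = 0.00194), -0.22 ± 0.12 in SZ-A against HFD (adjusted p = 0.404) and 0.50 ± 0.10 in SZ-A against NC (adjusted p = 0.00876). C1qa, the A chain, had 36.6 to 58.4 FPKM in NC (median 44.4), 48.4 to 80.7 in HFD (median 67.6) and 48.3 to 77.1 in SZ-A mice (median 57.1). C1qc, the C chain, had 16.6 to 32.7 in NC (median 22.6), 26.8 to 44.4 in HFD (median 37.9) and 27.3 to 38.4 in SZ-A mice (median 30.2). For both chains the groups overlapped, and 4 of 6 HFD mice lay above all NC mice. C1qa was higher in HFD than NC by 0.50 ± 0.15 on the log2 scale (adjusted p = 0.0277) and C1qc by 0.58 ± 0.17 (adjusted p = 0.0308). Neither was called in SZ-A against HFD (adjusted p = 0.741 and 0.603) or in SZ-A against NC (adjusted p = 0.122 and 0.102). The call of C1qa in HFD against NC was lost when NC1, NC4, HFD2, HFD4 or HFD5 was left out (adjusted p up to 0.0622), and that of C1qc when NC1, NC2, NC4, NC5, HFD1, HFD2, HFD4 or HFD5 was left out (adjusted p up to 0.0666). C1qc was called in SZ-A against NC only when NC6 was left out (adjusted p = 0.0413). Within a mouse, the level of C1qb per C1qa had a median of 0.957 in the NC, 1.13 in the HFD and 1.07 in the SZ-A group. Its ranges were 0.911 to 1.02, 1.03 to 1.19 and 0.914 to 1.19, so the SZ-A mice overlapped both other groups. C1qc per C1qa had medians of 0.536, 0.551 and 0.524 in the same order, with overlapping ranges. No scaling between mice can change these ratios, and they were not tested.

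**Figure D3:**
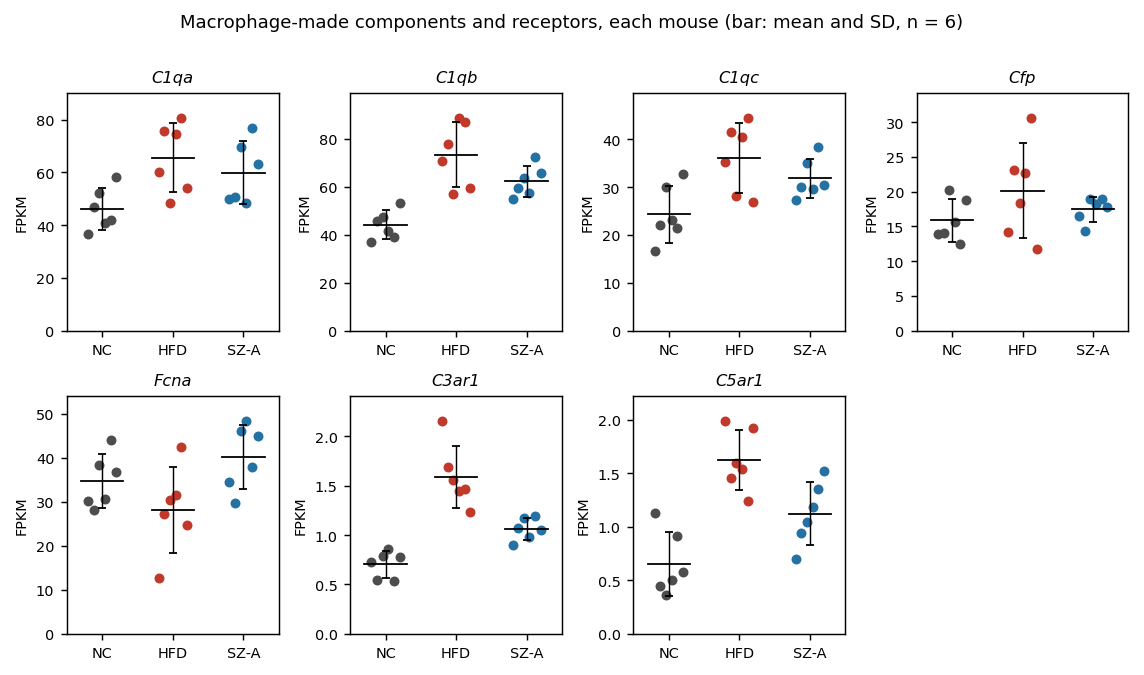
FPKM (y axis from 0) of the 7 macrophage-made genes in each of the 18 mice, with the group mean and SD as bars. For C1qb, C3ar1 and C5ar1 all HFD mice lie above all NC mice. For C3ar1 the SZ-A mice lie between the other groups, from 0.900 to 1.196 FPKM, without overlap, while Fcna has its lowest mouse, at 12.7 FPKM, in HFD.

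Of the 2 proteases of C1, C1s1 was called in HFD against NC and C1ra was not, and the difference between the genes was not tested. C1s1, which encodes the protease that cleaves C4 and C2, had 70.9 to 117.4 FPKM in NC (median 95.0), 117.5 to 138 in HFD (median 132.9) and 103 to 139 in SZ-A mice (median 123). All 6 HFD mice were above all NC mice, though the nearest pair lay close together. Its log2 fold change was 0.51 ± 0.11 in HFD against NC (adjusted p = 0.00571), -0.09 ± 0.08 in SZ-A against HFD (adjusted p = 0.617) and 0.41 ± 0.12 in SZ-A against NC (adjusted p = 0.0415). The last call was lost on leaving out NC1, NC2, NC3, NC4, SZ-A1, SZ-A2, SZ-A3, SZ-A4 or SZ-A6 (adjusted p up to 0.0974). C1ra, which encodes C1r, the protease that activates C1s, had 56.6 to 73.6 FPKM in NC (median 63.1), 59.0 to 74.0 in HFD (median 66.0) and 65.6 to 86.7 in SZ-A mice (median 80.4). It was not called in HFD against NC (0.07 ± 0.08, adjusted p = 0.606) or in SZ-A against HFD (0.21 ± 0.08, adjusted p = 0.261), and 4 of 6 SZ-A mice lay above all HFD mice. Against NC mice (adjusted p = 0.0712) it was called only without NC6 or without SZ-A2 among the mice left out (adjusted p down to 0.0428). The level of C1s1 per C1ra lay between 1.25 and 1.59 in NC, between 1.86 and 2.04 in HFD and between 1.28 and 1.81 in SZ-A mice, so the HFD range met neither of the others. This ratio was chosen after its values were seen and was not tested. C1ra and C1s1 have close copies, C1rb and C1s2, to which few fragments were assigned. The group means were 0.106 to 0.109 FPKM for C1rb and 0.0246 to 0.0322 for C1s2. Whether fragments shared with the copies were left uncounted was not tested.

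C4b had the largest change of the hepatocyte-made members in HFD mice. It encodes C4, which C1s and the MASP proteases cleave to build the C3 convertase. Its levels were 133 to 191 FPKM in NC (median 171), 257 to 409.9 in HFD (median 305) and 214 to 361 in SZ-A mice (median 330.1). All HFD and all SZ-A mice lay above all NC mice, and SZ-A and HFD mice overlapped. C4b was 1.89-fold higher in HFD than NC (log2 0.92 ± 0.13, adjusted p = 0.000489), 1.8-fold higher in SZ-A than NC (log2 0.85 ± 0.15, adjusted p = 0.00459) and did not pass the test in SZ-A against HFD (log2 -0.07 ± 0.15, adjusted p = 0.871). C4a, a near-identical copy outside the 34, was also called higher in HFD than NC (log2 1.24 ± 0.22, adjusted p = 0.00214) from a mean of 1.5 FPKM, and how fragments were split between the 2 is uncertain.

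Neither of the other central components was called in HFD against NC. C2, the protease part of that convertase, had 4.72 to 7.23 FPKM in NC (median 5.91), 6.09 to 9.13 in HFD (median 7.40) and 7.03 to 9.27 in SZ-A mice (median 8.54). In all, 5 of the 6 SZ-A mice lay above all NC mice. It was called in SZ-A against NC (log2 0.51 ± 0.11, adjusted p = 0.0138) but not in HFD against NC (0.33 ± 0.12, adjusted p = 0.0675), where it was called without NC2 or without HFD3 (adjusted p down to 0.0413), nor in SZ-A against HFD (0.18 ± 0.11, adjusted p = 0.469). C3 itself had 927 to 1555 FPKM in NC (median 1366), 1107 to 1984 in HFD (median 1390.0) and 946 to 1745 in SZ-A mice (median 1533). The 3 groups overlapped, and C3 was not called in HFD against NC (0.09 ± 0.16, adjusted p = 0.736), SZ-A against HFD (0.07 ± 0.17, adjusted p = 0.878) or SZ-A against NC (0.16 ± 0.16, adjusted p = 0.589).

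**Figure D4:**
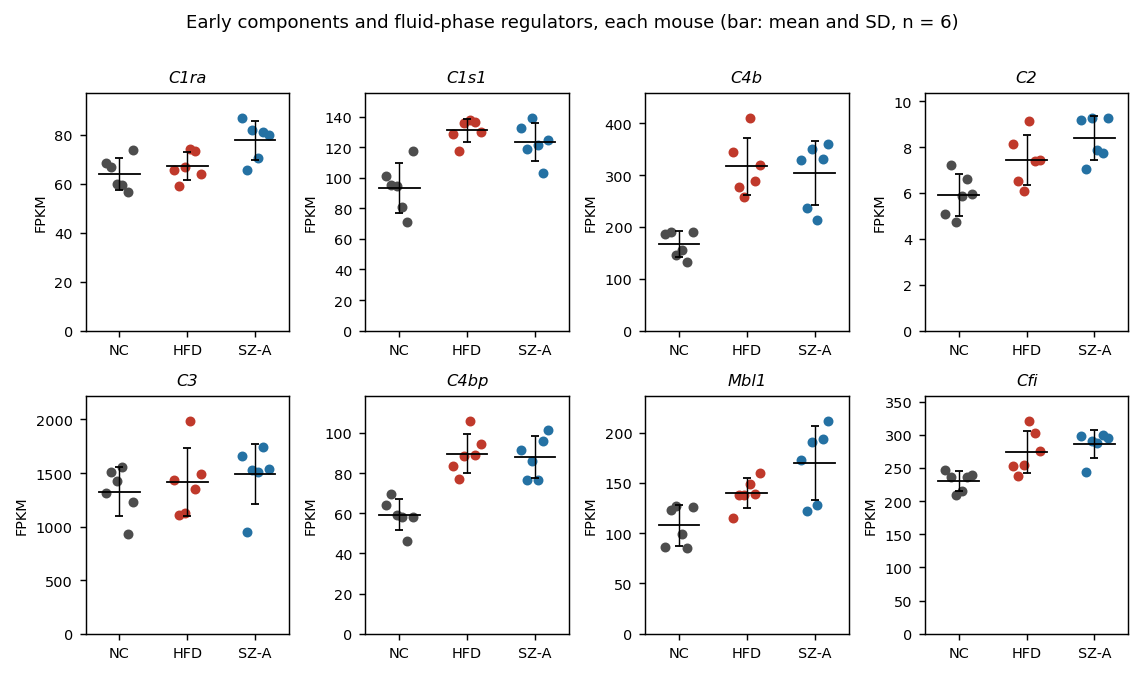
FPKM (y axis from 0) of 8 early components and fluid-phase regulators in each mouse, with the group mean and SD as bars. C1s1, C4b and C4bp have all HFD mice above all NC mice, whereas C1ra and C3 overlap. The lowest SZ-A mouse of C3, at 946 FPKM, stands apart from the other SZ-A mice, which start at 1514.

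Of the alternative pathway, Cfb and Cfp were members. Cfb (factor B, the protease of the alternative C3 convertase) had 0.634 to 1.65 FPKM in NC (median 1.45), 1.58 to 2.25 in HFD (median 2.10) and 1.31 to 2.55 in SZ-A mice (median 1.84). Here 5 of 6 HFD mice were above all NC mice, and it was higher in HFD than NC (log2 0.61 ± 0.20, adjusted p = 0.0409), a call lost without NC2, NC3, HFD2, HFD3, HFD4, HFD5 or HFD6 (adjusted p up to 0.0784). It was not called in SZ-A against HFD (-0.17 ± 0.15, adjusted p = 0.638). The annotation places Gm20547, a gene on the same strand with no fragments, over both Cfb and C2, and fragments that fit more than 1 gene may not have been counted, so the levels of Cfb and C2 as listed are uncertain. Cfp (properdin, which stabilises that convertase) had 12.4 to 20.3 FPKM in NC (median 14.9), 11.7 to 30.6 in HFD (median 20.6) and 14.4 to 19.0 in SZ-A mice (median 18.03). It did not pass the test in HFD against NC (0.29 ± 0.21, adjusted p = 0.349), and its highest and its lowest mouse were both in HFD.

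Of the 7 members of the lectin pathway, 2 were called in HFD against NC (28.6%, beside 20.2% of all genes called). Mbl1 (mannose-binding lectin A) had 84.8 to 126.7 FPKM in NC (median 111), 115 to 159.8 in HFD (median 138) and 122 to 211 in SZ-A mice (median 181.5). Here 5 of 6 HFD mice and 5 of 6 SZ-A mice were above all NC mice. It was higher in HFD than NC (log2 0.39 ± 0.12, adjusted p = 0.0407) and in SZ-A than NC (log2 0.65 ± 0.16, adjusted p = 0.0251), and was not called in SZ-A against HFD (0.26 ± 0.14, adjusted p = 0.421). The first call was lost without NC1, NC4, NC5, HFD2, HFD3, HFD4, HFD5 or HFD6 (adjusted p up to 0.0824), and the second without NC1, NC4, SZ-A1, SZ-A3 or SZ-A6 (adjusted p up to 0.0621). Colec11 (collectin kidney 1) was higher in HFD than NC by 0.37 ± 0.12 (adjusted p = 0.0487), from 19.3 to 28.2 FPKM in NC (median 24.3) to 24.4 to 39.4 in HFD (median 31.4), with 25.4 to 35.6 in SZ-A mice (median 31.1). The groups overlapped, and the call was lost without NC1, NC2, NC3, NC4, NC5, HFD1, HFD2, HFD4 or HFD6 (adjusted p up to 0.0969). For SZ-A against NC, Colec11 (adjusted p = 0.0561) was called without NC6, SZ-A1 or SZ-A5 (adjusted p down to 0.0346).

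Neither lectin pathway protease was called in HFD against NC. Masp2, which encodes the protease that cleaves C4 and C2, had 33.5 to 39.9 FPKM in NC (median 38.4), 37.0 to 44.2 in HFD (median 41.8) and 40.3 to 55.2 in SZ-A mice (median 46.3). All SZ-A mice lay above all NC mice, and the 3 highest also above all HFD mice. It was called in SZ-A against NC only (log2 0.31 ± 0.09, adjusted p = 0.0473), and this call was lost on leaving out any NC mouse or SZ-A1, SZ-A2, SZ-A3 or SZ-A6 (adjusted p up to 0.106). Masp1 had medians of 11.96, 14.3 and 13.7 FPKM in NC, HFD and SZ-A mice, Mbl2 (mannose-binding lectin C) had 154, 208 and 198, and Colec10 (collectin liver 1) had 6.51, 7.83 and 7.70, with overlapping ranges. Masp1 and Mbl2 were not called in any comparison, with log2 fold changes of 0.21 ± 0.11 and 0.41 ± 0.16 in HFD against NC (adjusted p = 0.207 and 0.0848), and nor was Colec10 (0.31 ± 0.15, adjusted p = 0.162). Masp2 and Masp1 overlap the genes Tardbp and Rtp4 on the opposite strand, and whether the counting used strand is not given in the sources used here.

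Fcna, which encodes ficolin A, a lectin of macrophages, was not called in any comparison. It had 28.0 to 44.1 FPKM in NC (median 33.6), 12.7 to 42.4 in HFD (median 28.8) and 29.8 to 48.3 in SZ-A mice (median 41.3). In HFD against NC it was the one macrophage-made gene with a negative value. Its log2 fold changes were -0.36 ± 0.23 in HFD against NC (adjusted p = 0.283) and 0.58 ± 0.23 in SZ-A against HFD (adjusted p = 0.272, unadjusted p = 0.0288), and the groups overlapped.

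In the terminal pathway, 2 of 6 tested members (33.3%) were called higher in HFD than NC mice, and others had values in the opposite direction. Over all genes, 20.2% were called higher or lower. C9, which forms the pore, had 88.0 to 122 FPKM in NC (median 105), 133 to 197 in HFD (median 165) and 86.4 to 245 in SZ-A mice (median 180.0). All HFD mice were above all NC mice, while the SZ-A mice reached both below all NC and above all HFD mice. Its log2 fold change was 0.64 ± 0.11 in HFD against NC (adjusted p = 0.00208) and -0.05 ± 0.23 in SZ-A against HFD (adjusted p = 0.945). Hc, which encodes C5, had 71.8 to 132.7 FPKM in NC (median 110.1), 114 to 176 in HFD (median 137) and 105 to 189 in SZ-A mice (median 177). Here 5 of 6 HFD mice were above all NC mice, and Hc was higher in HFD than NC by 0.45 ± 0.15 (adjusted p = 0.047). This call was lost on leaving out NC2, NC3, NC4, NC5, HFD1, HFD3, HFD4, HFD5 or HFD6 (adjusted p up to 0.0989). For SZ-A against NC, C9 (0.59 ± 0.22, adjusted p = 0.117) and Hc (0.53 ± 0.18, adjusted p = 0.0834) were called only when SZ-A2 was left out among the mice left out in turn (adjusted p = 0.0271 and 0.0388).

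C6, which binds C5b first in the complex, had 36.6 to 55.3 FPKM in NC (median 46.8), 13.3 to 49.6 in HFD (median 28.1) and 22.3 to 68.0 in SZ-A mice (median 48.4). Here 4 of 6 HFD mice were below all NC mice. Its log2 fold change of -0.72 ± 0.25 in HFD against NC did not pass the test (adjusted p = 0.0585), and did so without HFD3 or without HFD6 (adjusted p down to 0.0178). In SZ-A against HFD it had 0.57 ± 0.33 (adjusted p = 0.451). The level of C9 per C6 had medians of 2.15 in the NC, 5.25 in the HFD and 3.82 in the SZ-A group, with ranges of 1.84 to 2.99, 3.97 to 12.6 and 3.39 to 4.17. The HFD range lay above the NC range, and this ratio too was chosen after its values were seen and was not tested. C7, made by other cells, had medians of 0.991, 0.819 and 0.874 FPKM in NC, HFD and SZ-A mice, within overlapping ranges.

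None of the 3 chains of C8 was called in any comparison. C8b had 57.0 to 109.0 FPKM in NC (median 95.5), 52.5 to 92.2 in HFD (median 63.2) and 71.5 to 172 in SZ-A mice (median 149). Here 4 of 6 SZ-A mice lay above all NC and all HFD mice, and the other two within both ranges. It had the largest log2 fold change of all members in SZ-A against HFD (0.90 ± 0.24, unadjusted p = 0.00206), which did not pass the test over all genes (adjusted p = 0.112). Without SZ-A2, C8b was called (1.07, adjusted p = 0.0441). C8a had 85.1 to 174 FPKM in NC (median 130.7), 131 to 196 in HFD (median 143.5) and 111 to 271 in SZ-A mice (median 251), with 4 SZ-A mice above all others and 2 below all HFD mice. It was not called in HFD against NC (0.25 ± 0.16, adjusted p = 0.297), SZ-A against HFD (0.37 ± 0.24, adjusted p = 0.501) or SZ-A against NC (0.62 ± 0.25, adjusted p = 0.141). C8g, the chain that is bound to C8a, had medians of 203, 182 and 233 FPKM and was not called in HFD against NC (-0.03 ± 0.12, adjusted p = 0.908), SZ-A against HFD (0.24 ± 0.11, adjusted p = 0.350) or SZ-A against NC (0.22 ± 0.09, adjusted p = 0.138). The level of C8b per C8a had medians of 0.672 in the NC, 0.411 in the HFD and 0.659 in the SZ-A group, and the ranges of 0.521 to 0.879, 0.342 to 0.705 and 0.539 to 0.704 overlapped. C8a overlaps Gm17662, and C8g overlaps Fbxw5, on the opposite strand.

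**Figure D5:**
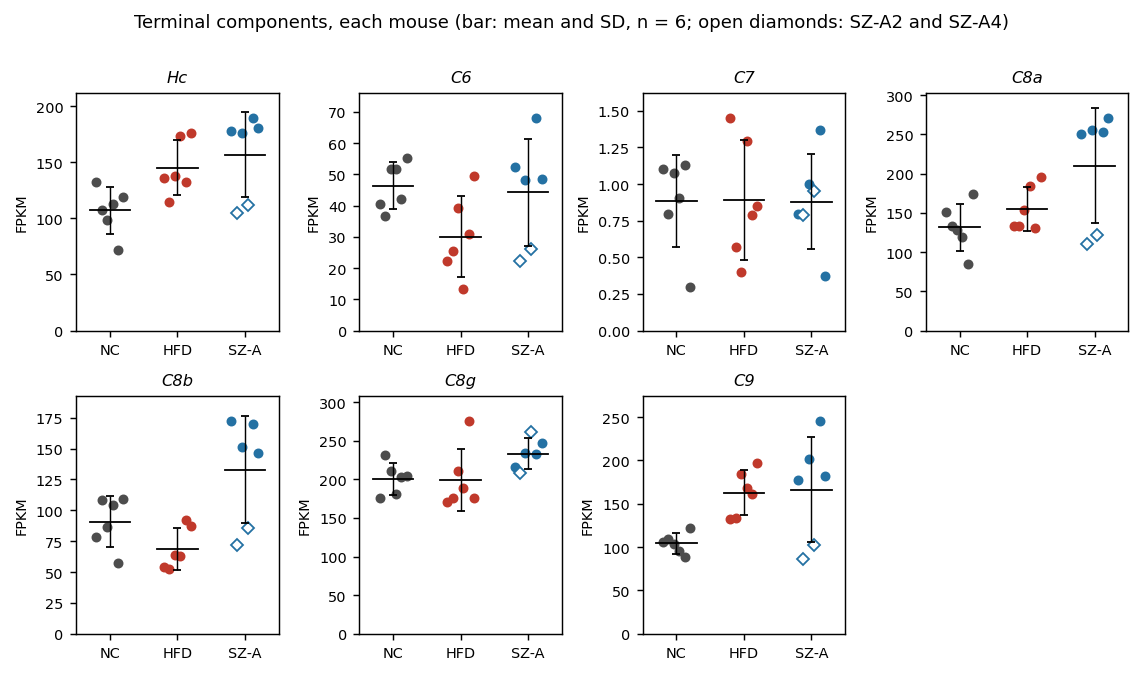
FPKM (y axis from 0) of the 7 terminal components in each mouse, with the group mean and SD as bars. In SZ-A the mice SZ-A2 and SZ-A4 (open diamonds) lie apart below the other 4 for Hc, C6, C8a, C8b and C9, for C8a at 111 and 122 against 250 to 271 FPKM, but not for C7 or C8g.

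The same SZ-A mice were low in many hepatocyte-made members. SZ-A2 was among the lowest 2 of its group for 17 of 21 hepatocyte-made genes and SZ-A4 for 17 of 21, and SZ-A2 was the lowest for 15. In NC the mouse NC5 was the lowest for 13 of 21, and in HFD the mouse HFD2 for 11 of 21. SZ-A2 and SZ-A4 had the highest Alb levels of the SZ-A mice, at 31700 and 37200 FPKM against 17500 to 20700, and their 10 most abundant genes took 17.7% and 18.6% of the fragments, against 14.3% to 15.35% in the other 4. NC5 had the highest Alb of the NC mice (36600 FPKM) and a share of 20.1%, whereas HFD2 had 19900 FPKM and 15.02%, inside the range of HFD. Other mice with high Alb were not low in these genes. NC1, with 34300 FPKM and 18.59%, was the lowest of its group for 1 of 21 and the highest for 5. HFD5, with the highest Alb of the HFD mice (29800 FPKM) and 16.87%, was the lowest for 1 and the highest for 3. The part of these differences in the low complement values was not tested.

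Of the 5 soluble regulators, C4bp and Clu were called in HFD against NC (40%, beside 20.2% of all genes called). C4bp, which encodes the inhibitor that binds C4b and takes the classical convertase apart, had 46.2 to 69.5 FPKM in NC (median 58.6), 77.2 to 105.8 in HFD (median 88.6) and 76.3 to 102 in SZ-A mice (median 88.8). All HFD and all SZ-A mice were above all NC mice. Its log2 fold change was 0.60 ± 0.10 in HFD against NC (adjusted p = 0.00148), -0.03 ± 0.09 in SZ-A against HFD (adjusted p = 0.916) and 0.57 ± 0.11 in SZ-A against NC (adjusted p = 0.00615). Clu had 415 to 534 FPKM in NC (median 449), 508 to 652 in HFD (median 556) and 427 to 785 in SZ-A mice (median 633), and it was higher in HFD than NC by 0.30 ± 0.09 (adjusted p = 0.0332). Here 4 of 6 HFD mice were above all NC mice, and the call was lost without NC2, NC3, NC4, NC6, HFD1, HFD4 or HFD6 (adjusted p up to 0.0741). Clu was not called in SZ-A against NC (adjusted p = 0.123) but was without SZ-A2 (adjusted p = 0.044).

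Cfi (factor I, the protease that inactivates C3b and C4b) had 209.7 to 246 FPKM in NC (median 236), 238 to 320.4 in HFD (median 264.5) and 244 to 300.2 in SZ-A mice (median 293). Here 5 of 6 mice of each high-fat diet group were above all NC mice. It was called in SZ-A against NC (log2 0.31 ± 0.08, adjusted p = 0.0213), a call lost without NC3, NC4, SZ-A3 or SZ-A6 (adjusted p up to 0.0536), and not in HFD against NC (0.24 ± 0.09, adjusted p = 0.0623), where it was called without HFD2 (adjusted p = 0.0482). Serping1 (the C1 inhibitor) had medians of 308, 321 and 367 FPKM, and Vtn had 928, 887 and 1126. Neither was called in any comparison. Vtn had a log2 fold change of 0.27 ± 0.13 in SZ-A against HFD (unadjusted p = 0.0495, adjusted p = 0.336).

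Of the 3 membrane regulators, Cd59a was called in HFD against NC (33.3%, beside 20.2% of all genes called). Cd59a, which encodes a membrane-anchored protein that blocks the entry of C9 into membranes, had 25.3 to 37.9 FPKM in NC (median 32.4), 39.5 to 46.7 in HFD (median 42.2) and 30.4 to 42.1 in SZ-A mice (median 39.9). All HFD mice were above all NC mice, while the SZ-A mice overlapped both groups. It was higher in HFD than NC by 0.39 ± 0.09 (adjusted p = 0.00982) and was not called in SZ-A against HFD (-0.16 ± 0.08, adjusted p = 0.368) or SZ-A against NC (0.23 ± 0.11, adjusted p = 0.195). Its copy Cd59b was also called in HFD against NC (0.88 ± 0.17, adjusted p = 0.00332), from a mean of 1.43 FPKM. Susd4, which encodes a sushi domain membrane protein that restrains complement, had 7.12 to 13.0 FPKM in NC (median 10.9), 4.18 to 9.16 in HFD (median 6.92) and 7.33 to 16.4 in SZ-A mice (median 12.8). Here 3 of 6 HFD mice were below all NC mice, and 5 of 6 SZ-A mice above all HFD mice. Neither its -0.63 ± 0.22 in HFD against NC (adjusted p = 0.0553) nor its 0.87 ± 0.24 in SZ-A against HFD (adjusted p = 0.135) passed the test. The first did when NC1, NC5, HFD3 or HFD5 was left out (adjusted p down to 0.0316). Cd55, the decay accelerating factor, had medians of 2.67, 3.03 and 2.74 FPKM and was not called in any comparison.

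The receptors of C3a and C5a had the largest changes of all members in HFD mice. C3ar1 had 0.531 to 0.860 FPKM in NC (median 0.751), 1.24 to 2.15 in HFD (median 1.51) and 0.900 to 1.196 in SZ-A mice (median 1.06). The groups did not overlap, with the SZ-A mice between the other two. C3ar1 was 2.1-fold higher in HFD than NC (log2 1.07 ± 0.16, adjusted p = 0.000686) and 1.46-fold higher in SZ-A than NC (log2 0.54 ± 0.15, adjusted p = 0.0375). Against HFD, SZ-A mice had a log2 fold change of -0.53 ± 0.13 (unadjusted p = 0.00119), which did not pass the test over all genes (adjusted p = 0.1). The call against NC was lost without NC1, NC2, NC3, SZ-A2, SZ-A3, SZ-A4, SZ-A5 or SZ-A6 (adjusted p up to 0.089). C5ar1 had 0.360 to 1.13 FPKM in NC (median 0.538), 1.24 to 1.99 in HFD (median 1.57) and 0.699 to 1.52 in SZ-A mice (median 1.11). All HFD mice were above all NC mice, and 4 of 6 SZ-A mice were below all HFD mice. It was 2.4-fold higher in HFD than NC (log2 1.27 ± 0.23, adjusted p = 0.0024), with a log2 fold change of -0.52 ± 0.17 in SZ-A against HFD (adjusted p = 0.196) and of 0.75 ± 0.26 in SZ-A against NC (adjusted p = 0.086), where it was called without NC1 (adjusted p = 0.0401). Both receptors rest on few fragments, from 37 to 196 per mouse for C3ar1 and from 17 to 108 for C5ar1. Beside them, the general macrophage marker Cd68 had means of 5.77 FPKM in the NC, 14.3 in the HFD and 9.2 in the SZ-A group, and was called lower in SZ-A than HFD (log2 -0.64 ± 0.11, adjusted p = 0.0451). It was the 1 marker called of the 9 macrophage and Kupffer cell markers tested in that comparison, of which 7 had negative and 2 positive values with a median of -0.50. The positive ones were Clec4f (log2 0.14 ± 0.21, means of 54.2 FPKM in HFD and 56.8 in SZ-A mice, adjusted p = 0.803) and Timd4 (log2 0.17 ± 0.34, adjusted p = 0.855). The mean sum of the 4 listed neutrophil markers was highest for HFD mice (13.8 FPKM), next for SZ-A (9.19) and lowest for NC mice (3.37), with overlapping ranges. In SZ-A against HFD the 3 tested had negative values (median -0.56), and 0 were called. Which cells the RNA of the receptors came from was not tested.

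Taking the hepatocyte-made genes as a list in SZ-A against HFD, 15 had positive and 6 negative log2 fold changes, with a median of 0.09. Of the 7 macrophage-made genes 1 had a positive and 6 had negative values, with a median of -0.17, against 0.03 for all genes tested. The deposited FPKM carry a scaling between mice, and rescaling them to a common sum moved the median of all genes by 0.19 in HFD against NC and by -0.17 in SZ-A against HFD. With it the hepatocyte-made median in SZ-A against HFD went from 0.09 to -0.09 and the macrophage-made median from -0.17 to -0.35. The median of all genes tested went from 0.03 to -0.15, so both lists moved along with it. The medians were 0.37 and 0.41 in SZ-A against NC. The 0 members called in SZ-A against HFD became 1 (C3ar1, lower) with that rescaling and 3 with sample weights (C8b and Susd4 higher, C3ar1 lower), and stayed 0 with voom on whole fragments.

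The counts depended on single mice. The 15 members called in HFD against NC were 8 without HFD4, 9 without NC4 and 14 without NC6. In SZ-A against NC the 9 members were 4 without SZ-A3 or SZ-A6, 5 without NC3 or NC4 and 11 without NC6. Calls over all genes moved too. In HFD against NC the 2062 genes called were 1668 without HFD4, 1693 without NC4 and 2025 without NC6. In SZ-A against NC the 981 were 601 without SZ-A3, 629 without SZ-A6, 730 without NC3, 755 without NC4 and 947 without NC6. C1qb, C1s1, C4b, C9, C4bp, Cd59a, C3ar1 and C5ar1 were called in HFD against NC under every alternative in which they were tested, and C1qb, C4b and C4bp were so in SZ-A against NC.

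Of 24 further complement genes that are not among the 34, 15 could be tested, and 6 were called higher in HFD than NC. That is 40% of those tested, beside 10.7% of all genes called higher. Among them were Cpb2 (carboxypeptidase B2, which trims C3a and C5a) at 0.63 ± 0.11 (adjusted p = 0.00148), Itgb2 (the beta chain of complement receptors 3 and 4) at 1.03 ± 0.18 (adjusted p = 0.00168), Cfd (adipsin, the protease that cleaves factor B) at 4.68 ± 0.88 (adjusted p = 0.00268), and the copies C4a and Cd59b given above. In SZ-A against HFD 0 of 15 were called, with 6 at an unadjusted p under 0.05 (3 higher and 3 lower), a threshold that 14.8% of all genes passed. The SZ-A mice had 3 called higher than in NC, among them C4a and Cpb2 (0.67 ± 0.13, adjusted p = 0.00667). That is 20% of those tested, beside 5.31% of all genes called higher. Of 19 genes for signals known to induce complement genes, 16 were tested and 4 were called higher in HFD than NC, among them Spi1 (PU.1, 1.02 ± 0.14, adjusted p = 0.000444), Socs3 (0.87 ± 0.22, adjusted p = 0.0136) and Irf1 (0.48 ± 0.15, adjusted p = 0.0401). The share was 25% of those tested, beside 10.7% of all genes called higher. None was called in SZ-A against HFD, with 1 of 16 at an unadjusted p under 0.05 (6.25%, beside 14.8% of all genes). In SZ-A against NC, Spi1 (0.52 ± 0.13, adjusted p = 0.0213), Cebpb (0.57 ± 0.15, adjusted p = 0.0301) and Socs3 (1.11 ± 0.31, adjusted p = 0.0378) were called higher. These were 18.8% of the inducer genes tested, beside 5.31% of all genes called higher.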

How the data were processed

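Liver RNA of 18 mice was analysed, 6 per group, grouped by sample title. The authors selected poly-A RNA, made libraries with a NEBNext Ultra kit, sequenced 150 bp paired-end reads and aligned them with HISAT2 2.0.5 to GRCm38 (mm10). The submitters' processing notes also name featureCounts 1.5.0-p3. The authors deposited FPKM per gene, which are normalized values and not counts. FPKM times gene length gave whole fragments for 100% of values above 0 within 0.05, with a library size factor of 0.9325 to 1.1414 that differs between mice. No pair of mice in a group was a duplicate (lowest chi-square per degree of freedom 20.3). limma 3.58.1 (lmFit, eBayes with trend, R 4.3.3) was fitted to log2(FPKM + 0.1) for the 10216 genes with mean FPKM of at least 1, with the 2 groups compared in each fit, and p-values were adjusted by Benjamini-Hochberg over all of them. A gene was called at adjusted p under 0.05 and fold change over 1.2. The script was tested on simulated data. Voom on the whole fragments recovered from the FPKM was used as an alternative, and the DESeq2 test of the study was not run. Other alternatives were pseudocounts of 1 and 0.01, no filter, mean FPKM of at least 5, rescaling to a common sum, median-ratio scaling, all 18 mice in 1 fit, sample weights, a replicate block and each mouse left out in turn. Members called in any comparison are given with their values, the rest by range or median. Of the further complement genes and of the inducer genes, those called in any comparison are named, except for some that are counted but not reported here. Ratios between members were not tested. Motifs and promoters come from RefSeq (GRCm38.p6). Python 3.11.15 with pandas 2.3.3, numpy 2.4.6 and matplotlib 3.10.9 did the rest. The members, lists and tests were chosen with earlier results of these data known.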

Additional observations from a re-analysis of the deposited data

Results flagged for a closer look

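In each group of 6 mice, the gap of the highest or lowest mouse of every member to its nearest neighbour was compared with the group's range (Dixon's test at 95%). Of 102 sets of a member and a group, 2 (1.96%) passed, where chance gives about 1 in 20. Both were the mouse SZ-A2. C3 was at 946 FPKM in SZ-A2, with the next SZ-A mouse at 1514, and Cfi was at 244 FPKM, with the next at 288. Without SZ-A2 neither C3 nor Cfi was called in SZ-A against HFD.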

How the results depend on the processing

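Of the 327 alternatives run on the 15 members called in HFD against NC, 69 lost the call and 0 changed its sign, and of 197 on the 9 members called in SZ-A against NC, 46 did and 0 changed sign. In HFD against NC, the 15 members called were 8 with no filter and 8 to 15 with 1 mouse left out, the 2062 genes called were 1271 at a mean FPKM of at least 5, and the hepatocyte-made median of 0.25 was 0.44 after rescaling to a common sum. In SZ-A against HFD, the 0 members called were 1 after rescaling to a common sum, 3 with sample weights and 0 to 1 with 1 mouse left out, and the hepatocyte-made median of 0.09 was -0.0898 after rescaling. The 15 genes called there were 0 with no filter, 26 at a mean FPKM of at least 5, 216 after rescaling (10 higher and 206 lower, against 8 and 7), 35 with all 18 mice in 1 fit, 26 with voom, 233 with sample weights and 2 to 49 with 1 mouse left out. In HFD against NC, rescaling called 2100 genes higher and 334 lower, against 1092 and 970. In SZ-A against NC, the 9 members called were 14 with sample weights and 4 to 11 with 1 mouse left out, and the 981 genes called were 564 with no filter, 1682 with sample weights and 601 to 1179 with 1 mouse left out. The cause of these moves was not tested. Deviations of mice with the same number correlated at -0.12 to 0.29, so the numbers were not taken to pair the mice. With a replicate block, members called were 10 in HFD against NC, 0 in SZ-A against HFD and 6 in SZ-A against NC, and genes called were 1647, 0 and 922. Few fragments limit C3ar1, C5ar1, Cfb and C7.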
